A study of Mus musculus with 2 samples.

Results

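The CC chemokines *Ccl2*, *Ccl7*, *Ccl8*, *Ccl12*, *Ccl3*, *Ccl4* and *Ccl5* and the receptors *Ccr1* and *Ccr2* were examined in thalamic leukocytes of injured mice. These 9 genes were taken by symbol from 33696 genes measured in both of 2 single-cell RNA sequencing (scRNA-seq) libraries. Both libraries hold live CD45+ cells sorted from the thalamus of C57B6/J mice that had received a cortical ablation injury (CAI), and CD45 is a surface protein of blood-derived cells and microglia. A control antibody (normal rat IgG) or an anti-CD9 antibody (clone KMC8, against the tetraspanin CD9) was injected into the thalamus through an implanted cannula from day 7 to day 19 after injury, at 1.0 µg/µl, and cells were collected on day 21. Each antibody is represented by 1 library, which per the study's methods for thalamic tissue pooled cells of several mice, and no age or sex is given for these animals in the labels. Antibody, pool of mice and library cannot be told apart, so no difference was tested, and intervals are 95% intervals that cover counting error only. Levels are CPM, the gene's UMIs as a part of all UMIs of the cells described, on the usual scale of counts-per-million. Both groups were injured and both received an antibody, so an uninjected thalamus was not analysed here.

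CC chemokines are small secreted proteins that direct the migration of leukocytes along concentration gradients through G protein-coupled receptors. CCL2, CCL7 and CCL12 act largely through CCR2, which brings monocytes out of the bone marrow and into inflamed tissue. CCL8 belongs with them to the monocyte chemoattractant proteins and is counted here among the CCR2 ligands, though its receptor in mice was not examined. CCL3 and CCL5 are ligands of CCR1, and CCL4 is a close relative of CCL3. In the injured brain, microglia, the resident macrophages, are a known source of these ligands, and infiltrating monocytes, neutrophils and T cells carry the receptors.

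After the study's limits on cell quality, 7467 of 12245 barcodes were kept in the control Ab library and 9162 of 15173 in the anti-CD9 Ab library. These held 24940542 and 22664880 unique molecular identifiers (UMIs, each a captured RNA molecule), with medians of 1880 and 1419 per cell, and 54 barcodes occurred in both libraries. Cells were clustered with the chemokine and receptor genes left out, and clusters were named from cell type markers. The composition differed widely between the libraries. Microglia-like cells made up 25.3% and 9.63% of kept cells, macrophage-like cells 3.58% and 13%, T cell-like cells 37.5% and 10.7%, and neutrophil-like cells 0.84% and 28.5%, in the order control Ab and anti-CD9 Ab that is used throughout. Clusters that met no naming rule held 12.5% and 27.5% of cells. Predicted doublets, barcodes that may hold more than 1 cell, made up 9.79% and 12.1% of cells. These shares were set beforehand from the number of barcodes in each library and are no measured difference.

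The sequences upstream of *Ccl12*, *Ccl8* and *Ccl3* are shown because the first pair are counted among the CCR2 ligands and the third is not. Their levels in microglia-like cells differed in opposite directions, although that of *Ccl3* by less than 2-fold. RefSeq promoter windows on GRCm38.p6 were held for 5 of the 9 members, namely *Ccl3*, *Ccl8*, *Ccl12*, *Ccr1* and *Ccr2*. The 250 bases before each start are given, with the TATA box letters TATAAA in capitals where they occur on the gene's strand. The *Ccl12* sequence lies at chr11:82101595-82101844 (+ strand), that of *Ccl8* at chr11:82114935-82115184 (+ strand) and that of *Ccl3* at chr11:83649379-83649628 (− strand).
Ccl12: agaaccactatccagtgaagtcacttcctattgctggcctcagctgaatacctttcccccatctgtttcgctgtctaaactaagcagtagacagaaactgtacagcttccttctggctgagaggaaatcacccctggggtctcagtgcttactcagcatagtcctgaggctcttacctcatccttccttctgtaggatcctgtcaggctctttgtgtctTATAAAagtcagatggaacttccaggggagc
Ccl8: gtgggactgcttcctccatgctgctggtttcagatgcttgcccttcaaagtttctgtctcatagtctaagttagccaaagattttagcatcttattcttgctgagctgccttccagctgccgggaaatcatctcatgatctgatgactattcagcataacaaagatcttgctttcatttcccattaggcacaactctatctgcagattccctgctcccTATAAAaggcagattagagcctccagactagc
Ccl3: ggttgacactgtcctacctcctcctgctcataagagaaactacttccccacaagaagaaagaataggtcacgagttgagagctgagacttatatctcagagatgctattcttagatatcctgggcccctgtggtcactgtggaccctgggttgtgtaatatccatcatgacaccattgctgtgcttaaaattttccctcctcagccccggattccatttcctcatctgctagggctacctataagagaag
The letters TATAAA stood 31 bases before the start of *Ccl12* and 32 bases before that of *Ccl8*. They were absent from the *Ccl3* window, and also from those of *Ccr1* and *Ccr2*, so their presence is no guide to the direction of a difference. On either strand and at any position of the 250 bases, they were held by 12.4% of 32851 promoter windows. A match of letters is a description and shows no binding.

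Which cells carried the ligands was examined first, because a level in the whole library moves with the makeup of the cells. The 4 CCR2 ligands came mostly from microglia-like cells in both libraries, which held 68.9% and 58.7% of their UMIs. Macrophage-like cells held 15.3% and 21.7%. *Ccl3* and *Ccl4* had a different source in each library: microglia-like cells held 71.9% and 3.27% of their UMIs, and in the anti-CD9 Ab library neutrophil-like cells held 72.4%. For *Ccl5*, the mixed cluster of NK cells and T cells held 35.6% and T cell-like cells 20.5% with control Ab, and macrophage-like cells 62.9% with anti-CD9 Ab. Among the receptors, *Ccr2* was held mostly by T cell-like cells with control Ab, at 70.2%, and by macrophage-like cells with anti-CD9 Ab, at 49.9%. *Ccr1* was held by T cell-like cells at 44.2% with control Ab and by neutrophil-like cells at 54.1% with anti-CD9 Ab. Over all kept cells 6 of the 9 members were at least 2-fold higher with anti-CD9 Ab, against 7.41% of 15136 genes with at least 50 UMIs, and 0 were at least 2-fold lower, against 21.6%.

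**Figure D1:**
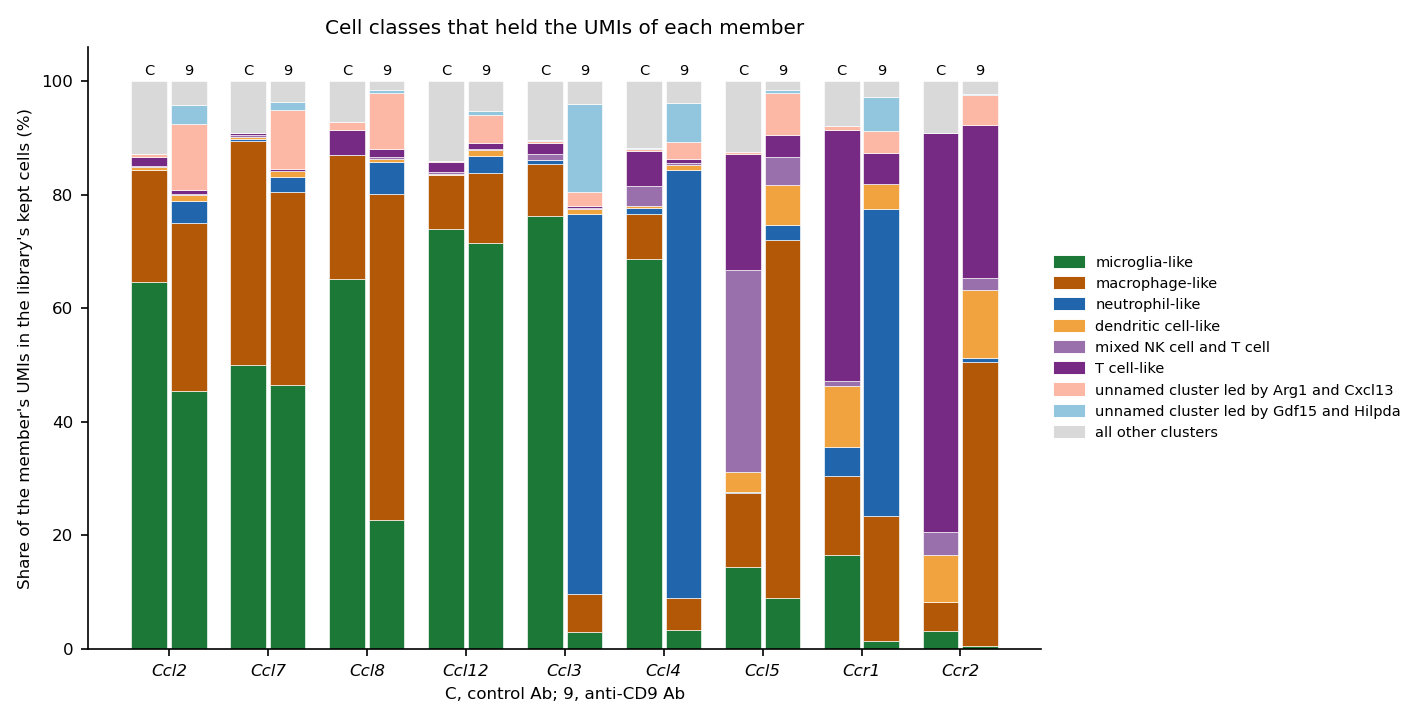
Share of each member's UMIs (percent of the library's UMIs of that gene) that each cell class held, 1 bar per library. Microglia-like cells held most CCR2 ligand UMIs in both libraries, while those of *Ccl3* and *Ccl4* lay mostly in microglia-like cells with control Ab and in neutrophil-like cells with anti-CD9 Ab.

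In microglia-like cells (1889 and 882 cells, median depth 3108 and 3329.5 UMIs), all 4 CCR2 ligands were higher with anti-CD9 Ab. *Ccl12*, a mouse CCR2 ligand that recruits monocytes, was at 223 CPM (interval 213–232) in the control library and 1155 CPM in the other, a log2 ratio of 2.38 (2.30–2.45). *Ccl2*, the main monocyte chemoattractant, was at 152 CPM (145–160) and 454 CPM (431–479), a log2 ratio of 1.58 (1.47–1.68). These intervals cover counting error only. With control Ab, 19 of the 1889 cells held 16.6% of the *Ccl12* UMIs, and the 19 richest in *Ccl2* held 24.7% of that gene's. With anti-CD9 Ab, 9 of the 882 cells held 9.53% and 14.8% in the same way. *Ccl7*, which attracts monocytes through CCR2 and other receptors, was at 13.6 CPM (11.4–16.1) and 84.2 CPM (74.3 to 95), a log2 ratio of 2.63. *Ccl8* was the least captured, with 45 and 104 UMIs, or 4.63 and 33.3 CPM, and 9 cells held 75% of its UMIs with anti-CD9 Ab. Summed, the CCR2 ligands were at 393 CPM (381–406) with control Ab and 1727 CPM with anti-CD9 Ab, 4.39-fold higher, with a log2 ratio of 2.14 (2.08–2.20).

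Of the 9 members, 6 were at least 2-fold higher in microglia-like cells with anti-CD9 Ab (*Ccl2*, *Ccl7*, *Ccl8*, *Ccl12*, *Ccl5* and *Ccr1*) and 0 were at least 2-fold lower, where 3.71% and 4.16% of 11077 genes with at least 50 UMIs were. The median log2 ratio was 1.58 over the members and 0.02 over those genes. The share of cells with a UMI moved the same way as the level: 37.6% and 63.2% of microglia-like cells had a *Ccl12* UMI, and 14.8% and 40.6% did when each cell was thinned to 1000 UMIs, which left out 45 and 22 shallower cells. For *Ccl2* the thinned shares were 9.44% and 25.6%. T cell-like cells (median depth 1551 and 2276 UMIs) are no known source of these ligands. After thinning, 0.853% and 1.77% of them had a *Ccl12* UMI and 0.812% and 0.885% a *Ccl2* UMI. The *Ccl12* shares were 1.92% of 156 and 9.68% of 31 oligodendrocyte-like cells, and 1.06% of 283 and 0% of 28 astrocyte-like cells. For *Ccl2* they were 0.641% and 3.23% of oligodendrocyte-like cells, and 1.06% and 3.57% of astrocyte-like cells. Within microglia-like cells thinned in this way, *Ccl2* was found in 16.5% of *Ccl12*-positive and 8.21% of *Ccl12*-negative cells with control Ab, and in 35.8% and 18.6% with anti-CD9 Ab. The 1% of microglia-like cells with most CCR2 ligand UMIs held 17.6% and 8.32% of them, so a smaller share of the UMIs lay in the richest cells with anti-CD9 Ab. Summed microglia markers were at 13615.5 and 7972 CPM in this class, neutrophil markers at 629 and 1047 CPM and T cell markers at 146 and 35.5 CPM. The log2 ratio of the CCR2 ligands was 2.09 without cells that had 2 or more UMIs of neutrophil markers.

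**Figure D2:**
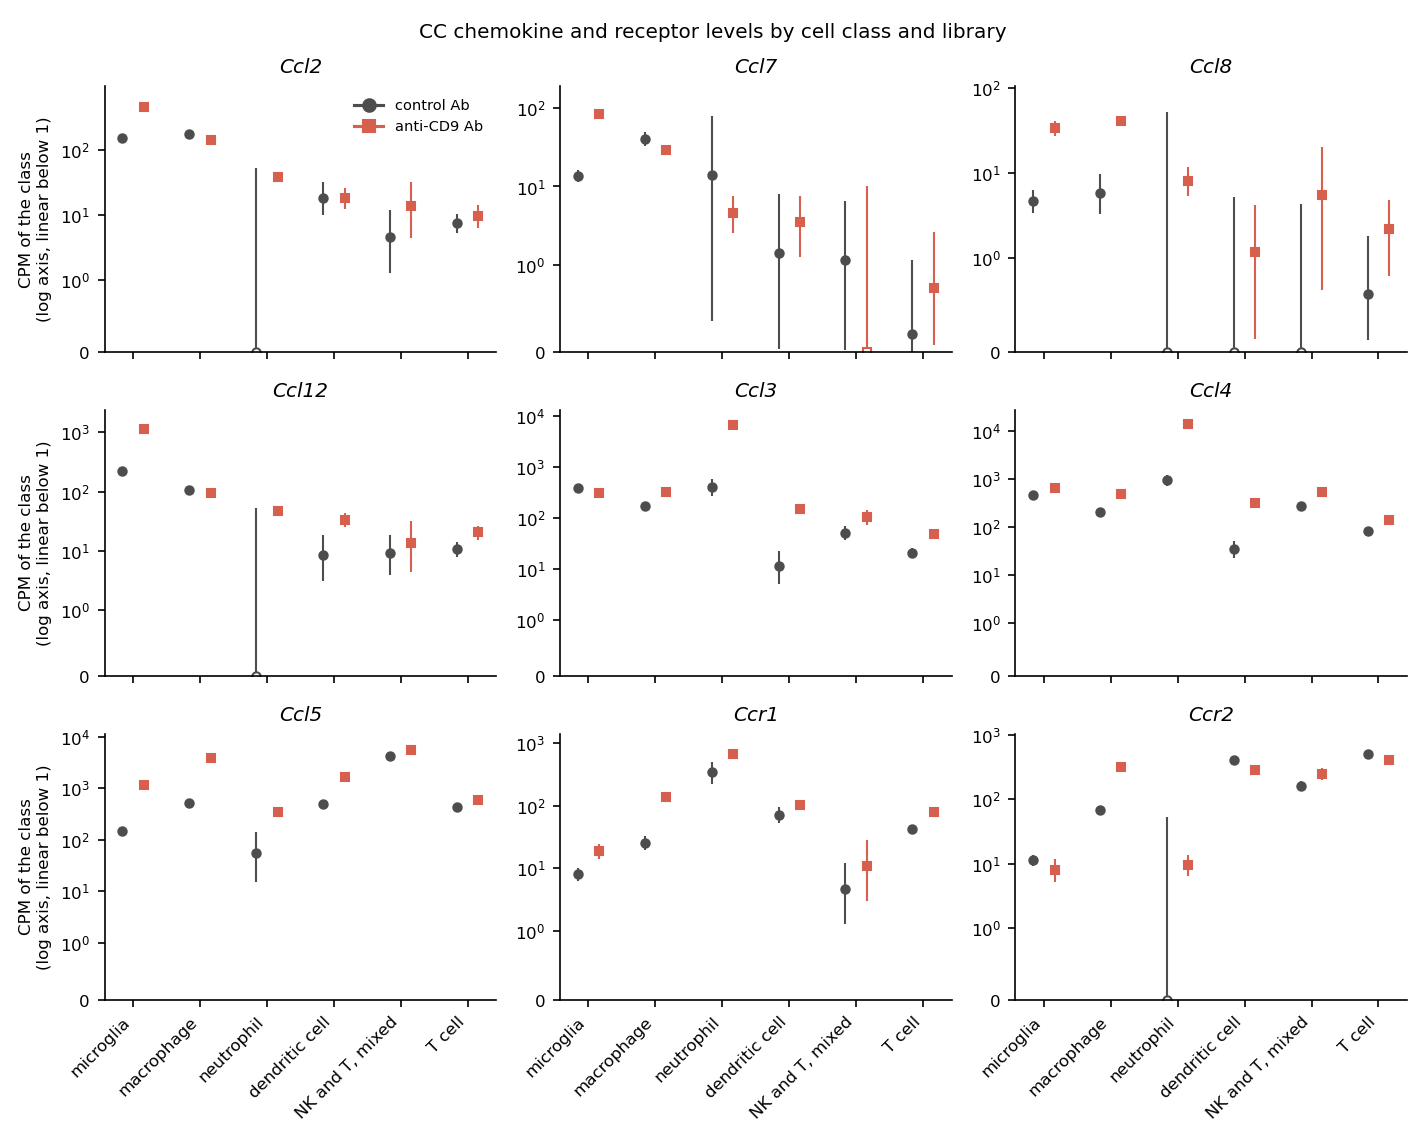
Level of each member (CPM, log axis) in the cell classes, by library, with points for each library and bars for 95% Poisson intervals. In microglia-like cells the 4 CCR2 ligands and *Ccl5* lie higher with anti-CD9 Ab, and in neutrophil-like cells *Ccl3* and *Ccl4* do.

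Microglia-like cells were then divided into 9 sub-clusters to see whether the higher CCR2 ligand level lay in a single state. It was higher with anti-CD9 Ab in 8 of the 9. The sub-clusters were made after anchors had aligned the libraries, so a sub-cluster need not hold the same state in both. Summed microglia markers of the largest, for example, were at 17301 and 10977 CPM. Without integration, a microglia-like cluster led by *Ccl12* and *Cxcl13* held 117 and 654 cells. Those led by *Lpl* and by *Siglech* held 1039 and 109 cells, and 803 and 78 cells. In the largest sub-cluster, led by *8030442B05Rik* and with the microglial gene *Siglech* among its leading genes, the sum was 176 CPM with control Ab and 1446 CPM with anti-CD9 Ab, a log2 ratio of 3.04. It was 345 and 1127 CPM in the sub-cluster led by *Ctnna3* and *Csf1*, 500 and 2061 CPM in that led by *Saa3*, *Cxcl9* and MHC class II genes, and 487 and 1646 CPM in cycling cells marked by *Top2a*. The sub-cluster with the interferon-response genes *Cxcl10* and *Ifit3* had the highest level in both libraries, 3069 and 3872 CPM, and the smallest log2 ratio among those that were higher, 0.34 (0.12–0.55). The exception was a sub-cluster carrying T cell genes such as *Cd3g*, of which 83.9% were predicted doublets and which had 10 cells and 6 CCR2 ligand UMIs with anti-CD9 Ab.

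**Figure D3:**
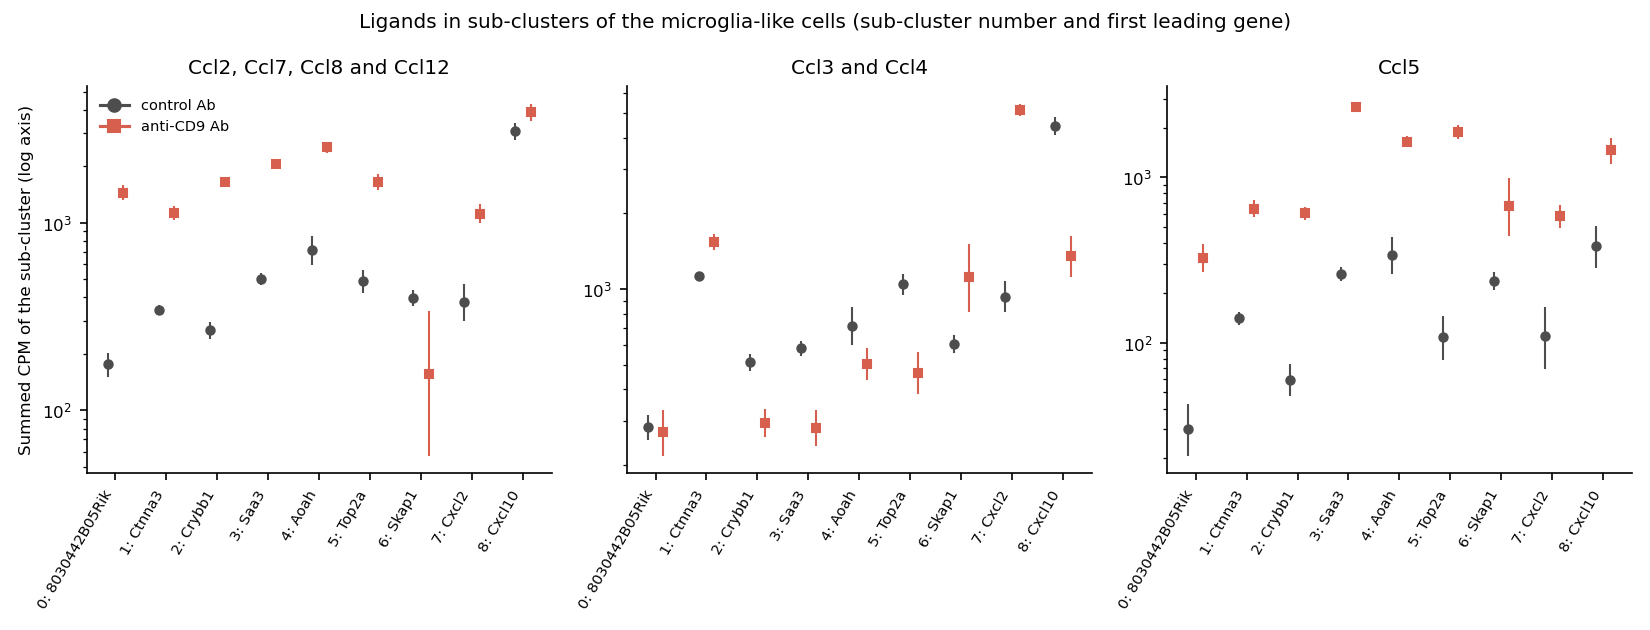
Levels of the CCR2 ligands, of *Ccl3* with *Ccl4* and of *Ccl5* (CPM, log axis) in each of the 9 microglia-like sub-clusters, with points for each library and bars for 95% Poisson intervals. CCR2 ligands are higher with anti-CD9 Ab in 8 sub-clusters and *Ccl5* in 9.

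*Ccl3* and *Ccl4*, which attract leukocytes to inflamed tissue, did not share this pattern in microglia-like cells. *Ccl3* was at 383 CPM (371–396) and 307 CPM (288–327), a log2 ratio of −0.32 (−0.42 to −0.22). With anti-CD9 Ab its thinned share was 13.1%, against 3.57% of 28 astrocyte-like and 22.6% of 31 oligodendrocyte-like cells. *Ccl4* was at 460 CPM (447–474) and 628 CPM (601–657), a log2 ratio of 0.45 (0.37–0.53). Astrocyte-like and oligodendrocyte-like cells, which should lack it, reached 570 and 812 CPM with anti-CD9 Ab. Their summed neutrophil markers were at 1489 and 4704 CPM, against 1047 CPM in microglia-like cells. It was thus not clear whether the microglia-like level was above background. After thinning, 20.8% of microglia-like, 10.7% of 28 astrocyte-like and 22.6% of 31 oligodendrocyte-like cells had a *Ccl4* UMI. The sum of *Ccl3* and *Ccl4*, 843 and 935 CPM, had a log2 ratio of 0.15 (0.09–0.21). With predicted doublets left out it was 875 and 465 CPM, a log2 ratio of −0.91 (−1.0 to −0.83), whereas that of the CCR2 ligands was 2.15. A sub-cluster of 26 and 56 cells with neutrophil genes such as *S100a9*, 72.0% of them predicted doublets, held 1305 of the 2922 *Ccl3* and *Ccl4* UMIs of microglia-like cells with anti-CD9 Ab. Its summed neutrophil markers were at 5596 and 6835 CPM, against 267–643 and 364–808 CPM in the other microglia-like sub-clusters, and their part in the result was not tested. In 6 of the 9 sub-clusters *Ccl3* with *Ccl4* was lower with anti-CD9 Ab, though for the largest, at 282 and 270 CPM, the interval of the log2 ratio included 0.

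**Figure D4:**
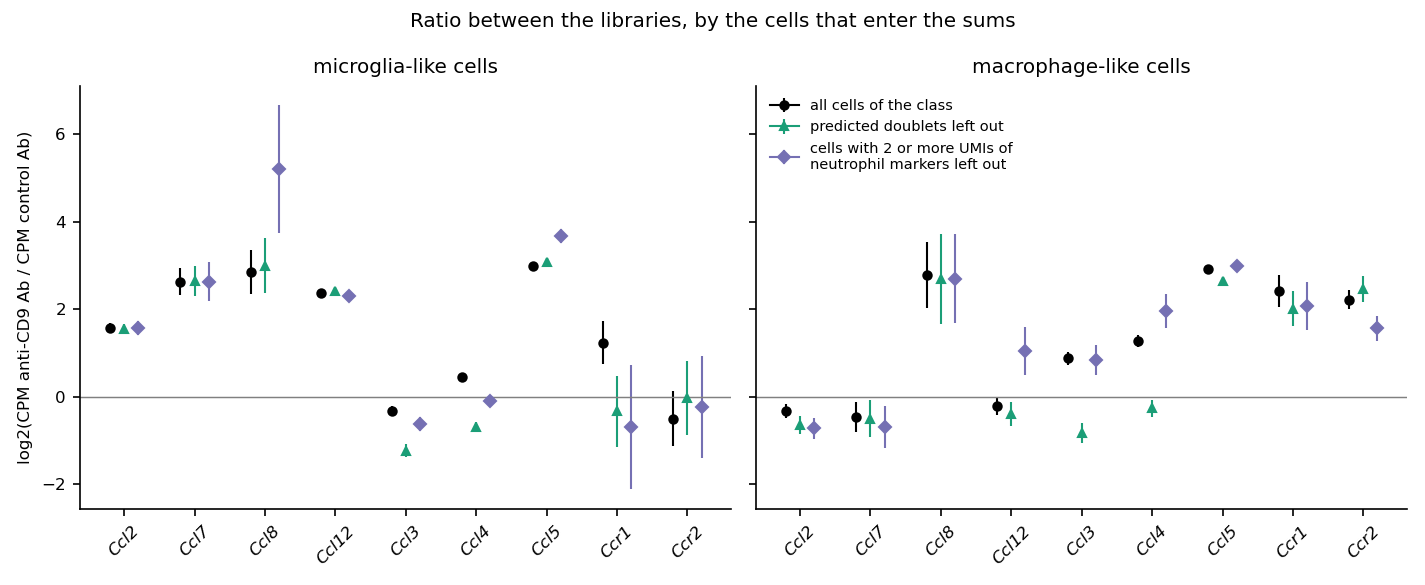
Log2 ratio of anti-CD9 Ab over control Ab for each member in microglia-like and macrophage-like cells, with all cells and with predicted doublets left out, and bars for 95% intervals. In microglia-like cells the ratios of *Ccl4* and *Ccr1* change sign without predicted doublets, and in macrophage-like cells those of *Ccl3* and *Ccl4* do.

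Neutrophil-like cells carried the highest *Ccl3* and *Ccl4* levels of the named classes with anti-CD9 Ab. There were 63 and 2608 of these cells, so the control values rest on few UMIs. *Ccl4* was at 919 CPM (65 UMIs) and 13445 CPM (43497 UMIs), a log2 ratio of 3.87 (3.52–4.22). *Ccl3* was at 410 CPM (29 UMIs) and 6527 CPM (21117 UMIs), a log2 ratio of 3.99 (3.47–4.52). These and *Ccl5* were the 3 of 6 members with at least 50 UMIs that were at least 2-fold higher, against 13.3% of 5297 genes, and 0 were at least 2-fold lower, against 19.6%. Of the pair of neutrophil-like clusters, that led by *Cxcl2* and *Rsad2* (12 and 1375 cells) had *Ccl4* at 3112 and 22000 CPM, and that led by *Retnlg* and *S100a8* (51 and 1233 cells) at 504 and 1750 CPM. After thinning, 64.2% of neutrophil-like cells had a *Ccl4* UMI and 57.8% a *Ccl3* UMI with anti-CD9 Ab. An unnamed cluster led by *Gdf15* and *Hilpda*, of 4 and 895 cells, was at 5251 CPM for *Ccl3* and 4245 CPM for *Ccl4* with anti-CD9 Ab and held 9.84% of that library's *Ccl3* and *Ccl4* UMIs. With control Ab, *Ccl4* was at 68.4 CPM in astrocyte-like cells and at 84.3 CPM in oligodendrocyte-like cells. The level of this ligand in these non-leukocyte classes was thus higher in the anti-CD9 Ab library. Their summed neutrophil markers, 85.5 and 158 CPM with control Ab, were higher there as well.

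Macrophage-like cells (267 and 1191 cells) did not show the CCR2 ligand difference of microglia-like cells. The CCR2 ligands were at 330 CPM (308–353) and 303 CPM (290–316), a log2 ratio of −0.12 (−0.24 to −0.01), and *Ccl2* was at 176 and 140 CPM. *Ccl8* was the exception, at 5.83 CPM (3.26–9.62) and 40.1 CPM (35.4–45.2), but 12 cells held 91.7% of its UMIs with anti-CD9 Ab. The name covered different cells in each library: summed microglia markers were at 6346 CPM with control Ab and 739 CPM with anti-CD9 Ab, and macrophage markers at 1182 and 4836 CPM. Their part in the results for this class was not tested. Of the 9 members, 5 were at least 2-fold higher with anti-CD9 Ab (*Ccl8*, *Ccl4*, *Ccl5*, *Ccr1* and *Ccr2*), against 6.94% of 9591 genes, and 0 at least 2-fold lower, against 11.1%. *Ccl4* was at 201 and 483 CPM, a log2 ratio of 1.27 (1.13–1.40), a level with anti-CD9 Ab that was below that of astrocyte-like cells, and without predicted doublets at 168 and 139 CPM, a log2 ratio of −0.27. Clustering without integration gave log2 ratios of 3.82 for *Ccl4*, 2.77 for *Ccl3* and 2.47 for *Ccl12*, against −0.21 for *Ccl12* here, so the ligand ratios of this class depend on which cells are put in it.

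*Ccl5*, a ligand of CCR1 best known from activated T cells and NK cells, was higher with anti-CD9 Ab in microglia-like, macrophage-like, neutrophil-like and dendritic cell-like cells. In microglia-like cells it was at 150 CPM (142–158) and 1181 CPM, a log2 ratio of 2.98 (2.89–3.07), and it was higher in 9 of 9 sub-clusters. The thinned share of microglia-like cells with a *Ccl5* UMI was 7.48% (6.32–8.78) and 41.2% (37.9–44.5). In macrophage-like cells it was at 515 CPM (487–543) and 3890 CPM, a log2 ratio of 2.92 (2.84–3.0). A sub-cluster of these led by *Nos2*, of 11 and 428 cells, was at 4489 and 7750 CPM and held 19213 of the 25626 *Ccl5* UMIs of macrophage-like cells with anti-CD9 Ab. The sub-cluster best filled in both libraries was led by *Fabp5*, *Gpnmb* and *Spp1* and had 132 and 175 cells. There *Ccl5* was at 54.9 and 772 CPM, a log2 ratio of 3.81 (3.40–4.23). Its markers differed between the libraries, with summed microglia markers at 3876 and 1265 CPM and macrophage markers at 1423 and 4710 CPM. In the sub-cluster with *Ms4a7* and *Pf4* among its leading genes, of 27 and 288 cells, *Ccl5* was at 1517 and 1850 CPM. There too the markers differed, with summed microglia markers at 4991 and 992 CPM and macrophage markers at 1984 and 5903 CPM. Neutrophil-like cells had 4 and 1105 *Ccl5* UMIs, a log2 ratio of 2.59 (1.18–4.01), and dendritic cell-like cells were at 507 and 1646 CPM, a log2 ratio of 1.70. After thinning, 17.2% of neutrophil-like cells had a *Ccl5* UMI with anti-CD9 Ab. The shares were 16.1% of 31 oligodendrocyte-like and 10.7% of 28 astrocyte-like cells, so the neutrophil-like share was not clearly above these non-leukocyte classes. With control Ab, oligodendrocyte-like and astrocyte-like shares were 5.77% and 4.24%, near the 7.48% of microglia-like cells.

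*Ccl5* differed by less than 2-fold in T cell-like cells and in the mixed cluster of NK cells and T cells. The mixed cluster of NK cells and T cells had the highest level with control Ab, at 4158 CPM, and was at 5507 CPM with anti-CD9 Ab, a log2 ratio of 0.41. T cell-like cells were at 427 CPM (409–446) and 596 CPM (567–626), a log2 ratio of 0.48 (0.39–0.57). Among their clusters, the *Cd4*-bearing cluster led by *Themis* was at 796 and 1022 CPM, and the *Trdc*-bearing cluster with *Il17a*, a gene of γδ T cells, at 53.5 and 187 CPM. Plasma cell-like cells went the other way, at 178 CPM (157–201) and 41.3 CPM, a log2 ratio of −2.11 (−2.51 to −1.71). With control Ab, 16 of the 152 plasma cell-like cells held 89.1% of these UMIs. Summed T cell markers in this class were at 413 and 39.9 CPM, and their part in the result was not tested.

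*Ccr2*, the receptor by which the first 4 ligands are grouped here, was highest in T cell-like and dendritic cell-like cells among the named classes with control Ab. T cell-like cells were at 495 CPM (475–515) and 406 CPM (382–430), a log2 ratio of −0.29 (−0.39 to −0.18), and after thinning 37.6% and 32.1% of them had a *Ccr2* UMI. Dendritic cell-like cells were at 400 and 287 CPM. Macrophage-like cells were at 66.9 CPM (57.2–77.6) and 311 CPM (298–325), a log2 ratio of 2.22 (1.99–2.44), or 0.85 when cells were named individually. Within sub-clusters of macrophage-like cells the ratio was smaller. *Ccr2* was at 881 and 1215 CPM in that led by *Chil3* and *Vcan*, genes of inflammatory monocytes, with 15 and 208 cells. In that led by *Fabp5*, *Gpnmb* and *Spp1* it was at 25.8 and 64.1 CPM, a log2 ratio of 1.31 (0.62–2.00). The markers of this last sub-cluster differed between the libraries, as given for *Ccl5*. Microglia-like cells had 11.3 CPM (9.30–13.6) and 8.0 CPM (5.18–11.8), and 0.813% and 0.698% of them had a *Ccr2* UMI after thinning. Astrocyte-like cells, which should lack the gene, were at 44.7 and 21.1 CPM, so the microglia-like level was not above background.

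*Ccr1*, a receptor of *Ccl3* and *Ccl5* on monocytes and neutrophils, was highest in neutrophil-like cells among the named classes, at 339 CPM (217–505) and 675 CPM (647–704), a log2 ratio of 0.99 (0.41–1.57). It was at 370 and 938 CPM in the *Retnlg* cluster and at 178 and 483 CPM in the *Cxcl2* cluster, the reverse of the order for *Ccl3* and *Ccl4*. Macrophage-like cells were at 25.3 CPM (19.5–32.2) and 135 CPM (126–144), a log2 ratio of 2.42 (2.05–2.78). T cell-like cells were at 42.4 and 79.7 CPM. After thinning, 13.2% of macrophage-like and 7.74% of T cell-like cells had a *Ccr1* UMI with anti-CD9 Ab. The shares were 22.6% of 31 oligodendrocyte-like and 3.57% of 28 astrocyte-like cells. The macrophage-like and T cell-like shares lay between those of the non-leukocyte classes. These classes had too few cells to set a background, with intervals of 9.59–41.1% and 0.09–18.3%. With anti-CD9 Ab, neutrophil markers summed to 4704 CPM in the oligodendrocyte-like class and 1489 CPM in the astrocyte-like class. The T cell-like class was at 214 CPM and the macrophage-like class at 734 CPM. The part of these markers in the *Ccr1* shares was not tested. In microglia-like cells *Ccr1* was low, at 7.92 CPM (6.25–9.90) and 18.6 CPM (14.1–24.0), and 36 of its 58 UMIs with anti-CD9 Ab lay in the sub-cluster with neutrophil genes. Without predicted doublets it was at 7.12 and 5.64 CPM there.

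Ligand and receptor were then compared within cells of the same class, thinned to 1000 UMIs. In macrophage-like cells with anti-CD9 Ab, *Ccl2* was found in 7.48% of *Ccr2*-positive and 7.40% of *Ccr2*-negative cells. *Ccl5* was found in 44.9% of *Ccr2*-positive and 56.7% of *Ccr2*-negative cells, and *Ccr1* in 23.2% and 10.5%. In neutrophil-like cells with anti-CD9 Ab, *Ccl4* was found in 57.6% of *Ccr1*-positive and 68.6% of *Ccr1*-negative cells, and in 85.4% of *Ccl3*-positive and 35.2% of *Ccl3*-negative cells. These shares are descriptions of 1 library.

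The number of members that differed by 2-fold varied among the remaining classes. In T cell-like cells, 1 of 7 members was at least 2-fold higher with anti-CD9 Ab (*Ccl3*, 20.8 and 48.5 CPM), against 3.26% of 9721 genes, and 0 were lower, against 2.48%. Without predicted doublets the log2 ratio of *Ccl3* there was 0.62. In the mixed cluster of NK cells and T cells 1 of 4 was higher (*Ccl3*, 51.0 and 104 CPM), against 3.44% of 4418 genes. After thinning, 3.54% of T cell-like and 5.67% of mixed-cluster cells had a *Ccl3* UMI with anti-CD9 Ab. The shares were 3.57% of 28 astrocyte-like and 22.6% of 31 oligodendrocyte-like cells, so these *Ccl3* levels were not clearly above those of non-leukocytes. Dendritic cell-like cells had 4 of 6 higher (*Ccl12*, *Ccl3*, *Ccl4* and *Ccl5*), against 7.06% of 6427 genes, and 0 lower, against 3.64%. Without predicted doublets the log2 ratios of *Ccl12* and *Ccl3* were 0.64 and 0.93. Members were also higher in non-leukocyte classes: 2 of 2 in astrocyte-like cells (*Ccl4* and *Ccl5*), against 3.67% of 3403 genes, and 4 of 4 in oligodendrocyte-like cells (*Ccl12*, *Ccl3*, *Ccl4* and *Ccl5*), against 5.35% of 2861 genes, with 0 lower in either, against 8.79% and 9.09%. In plasma cell-like cells 3 of 4 were higher (*Ccl2*, *Ccl3* and *Ccl4*), against 4.84% of 4336 genes, and *Ccl5* was lower, against 4.5%. In B cell-like cells 2 of 3 were higher (*Ccl3* and *Ccl4*), against 9.35% of 1209 genes, and 0 lower, against 4.71%.

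Other genes of the system were read from lists of 13 further CC chemokines, 13 further receptors and 16 genes of receptor signalling. In microglia-like cells 3 of the further chemokines had at least 50 UMIs, and *Ccl6* (362 and 82.6 CPM) and *Ccl9* (148 and 52.8 CPM), both constitutive myeloid chemokines, were at least 2-fold lower with anti-CD9 Ab, the opposite of the CCR2 ligands. *Ccrl2*, a non-signalling receptor, was at 38.3 and 105 CPM. Over all 11077 genes with at least 50 UMIs in that class, 3.71% were higher and 4.16% lower. None of the 16 signalling genes differed by 2-fold there. In macrophage-like cells 3 of 16 signalling genes (*Rgs1*, *Rgs2* and *Rgs10*) were at least 2-fold lower, against 11.1% of 9591 genes. In neutrophil-like cells *Ccrl2* was at 481 and 2345 CPM. There 7 of 15 signalling genes (*Gnai2*, *Gng2*, *Grk2*, *Grk6*, *Rgs1*, *Rgs2* and *Rgs10*) were at least 2-fold lower, against 19.6% of 5297 genes.

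Over 21 combinations of class and library, the genes with the most similar profiles of log levels were listed for each group of members, as a description of points that share libraries. The CCR2 ligands were nearest to *Gm57441* (Pearson's r 0.878), *Adgre1* (0.838) and *Tlr7* (0.824). *Ccl3* with *Ccl4* was nearest to *Ptgs2* (0.868), *Tarm1* (0.862) and *Tnfaip2* (0.861). *Ccl5* was nearest to *Ms4a6b* (0.801), *Ccr1* to *Adam8* (0.921) and *Ccr2* to *Hopx* (0.885).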

How the data were processed

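ScRNA-seq data of thalamic CD45+ cells in 2 libraries were used as deposited. The authors sorted live CD45+ cells, made 10x Genomics 3′ libraries and deposited raw UMI counts per gene and barcode, in which each count is 1 captured molecule. Cell Ranger 8.0.0 and build GRCm39 are named in the submitters' processing notes, while the study's methods name another Cell Ranger version and GRCm38, so no coordinate was taken from the count matrices. Barcodes with 200 to 7500 genes and at most 2% mitochondrial counts were kept, as in the study. Libraries were joined with Seurat 5.3.0 anchors (30 dimensions, 2000 variable genes without 35 chemokine and receptor genes, resolution 0.8), and classes were sub-clustered (20 dimensions, resolution 0.5). A class was named from its markers, with limits set after the data were seen. Doublets were scored against simulated doublets and kept in the class values unless stated. The cells with the highest scores were called, up to a fixed share of 0.8% per 1000 barcodes of the library. Counts were summed per class and library and given as CPM with exact Poisson intervals, and shares with exact binomial intervals. A difference was named at 2-fold or more with at least 50 UMIs over both libraries. No test was run, since an antibody had a single library. The members, lists and rules were chosen with earlier results of these data known. Genes named in the text are the members, the leading genes of clusters, list genes past 2-fold or of stated role, and the most similar genes by profile. A further gene of the lists is not reported here. Settings were varied as given in the closing section. Levels were not compared between genes, because only the 3′ end is counted. No member is among the 26 symbols that occur in more than 1 row.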

Additional observations from a re-analysis of the deposited data

Results flagged for a closer look

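The log2 ratio of *Ccl5* between anti-CD9 Ab and control Ab went in opposite directions between classes. It was −2.11 in plasma cell-like cells, and 2.98 in microglia-like, 2.92 in macrophage-like, 2.59 in neutrophil-like, 1.70 in dendritic cell-like, 1.58 in astrocyte-like and 1.41 in oligodendrocyte-like cells. Summed T cell markers in plasma cell-like cells were at 413 CPM with control Ab and 39.9 CPM with anti-CD9 Ab. The difference between classes was not tested, since each antibody has 1 library.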

How the results depend on the processing

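No paired analysis was possible because each antibody has 1 library. The log2 ratios below are in the order of the stated settings, and the cause of a change was not tested. For the CCR2 ligands in microglia-like cells (2.14) the mean over cells gave 2.24 and thinning 2.24. For *Ccl3* with *Ccl4* in microglia-like cells (0.15), clustering without integration gave 0.38, leaving out predicted doublets −0.91, naming cells individually 0.30, the mean over cells −0.075, thinning −0.037, and leaving out cells with neutrophil marker UMIs, a setting chosen after seeing the data, −0.32. For the CCR2 ligands in macrophage-like cells (−0.12), no integration gave 0.051, no doublets −0.38 and individual naming 0.021. For *Ccl5* in T cell-like cells (0.48), a mitochondrial limit of 5% gave 0.67, no integration 0.58, individual naming 0.38, the mean over cells 0.77 and thinning 0.72. For *Ccr2* in macrophage-like cells (2.22), the 5% limit gave 1.55, no integration 1.49, no doublets 2.46, individual naming 0.85, the mean over cells 1.64, thinning 1.30 and no neutrophil-marker cells 1.56. For *Ccr1* in macrophage-like cells (2.42) the 5% limit gave 1.73, no doublets 2.01 and individual naming 1.33. In T cell-like cells, members at least 2-fold higher (1) numbered 0 without doublets, 3 with individual naming and 2 by the mean over cells. Over single members, 239 of 253 alternative values kept their direction. The other 14 were, in microglia-like cells, *Ccr1* (−0.34 without doublets, −0.70 without neutrophil-marker cells), *Ccl4* (−0.69 and −0.088 in the same settings) and *Ccr2* (0.16 with individual naming). In macrophage-like cells they were *Ccl4* and *Ccl3* without doublets (−0.27 and −0.83) and *Ccl12* in 5 settings (0.24 to 2.47, from −0.21), and in T cell-like cells *Ccl2* in a pair of settings (−0.14 without doublets, −0.33 with individual naming). Counts of members at least 2-fold higher stayed within 1.5 times of the main count in microglia-like and macrophage-like cells. Depth limits *Ccl8* in both libraries and the neutrophil-like values with control Ab, which rest on 63 cells.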
